A study of Saccharomyces cerevisiae with 4 samples.

Results

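The genes described here build the peroxisome or carry out the work done inside it in Saccharomyces cerevisiae. They were chosen by name: every spot annotated as PEX followed by a number, plus 14 named genes of fatty acid oxidation and of the linked transport and shuttle steps. That gave 41 of the 5539 genes with spots on the array, 27 PEX genes and the 14 others, each with 2 spots.

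In the study, cells of a BY4741 strain without SLT2, the MAP kinase at the end of the cell wall integrity pathway, were grown in YEPD, a rich glucose medium, at 24 °C. The culture was then split. One portion received Congo red, which attaches to chitin and interferes with assembly of the wall, at 30 µg/ml, and the other continued untreated until both were collected at 4 h. Treated and untreated cells both lack SLT2, so no comparison with a strain that has the kinase is made here. As a BY4741 background, both also lack working copies of HIS3, LEU2, MET17 and URA3. Each of the 4 arrays held treated RNA in one channel and untreated RNA in the other. The treated RNA was in channel 2 on arrays 1 and 3 and in channel 1 on arrays 2 and 4. The labels do not tell if different cultures or clones supplied the arrays. The p-values therefore rest on array-to-array spread alone, and that spread may be technical.

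Peroxisomes are small organelles that in yeast hold the whole pathway of fatty acid beta-oxidation. Their enzymes are made in the cytosol and imported in folded form: receptors bind a short signal on the enzyme, dock at the membrane, and are then tagged with ubiquitin and pulled back out for another round. In cells with glucose many of these genes are kept low, and they rise strongly when oleate is the carbon source, through the factors Oaf1, Pip2 and Adr1. CIT2, the peroxisomal citrate synthase, is in addition the classical target of the Rtg factors, which act when mitochondrial function is impaired.

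All values are log2 ratios of Congo red over untreated RNA, given as mean ± SD over 4 arrays (n = 4) unless another number of arrays is stated. The sign is likely only. The deposited values of arrays with opposite channel order correlated below 0 across spots (r from -0.38 to -0.19), those of equal order above 0 (r = 0.27 and 0.31), and arrays 2 and 4 were therefore multiplied by -1. Channel 2 was taken as the numerator. With channel 1 as numerator, all signs below would turn round together. If the authors had already turned the ratios, the means below would follow the channel and not the dye treatment. Usable ratios were present at 84.1% to 90.9% of the 12800 spots of each array. The files hold ratios and no levels, so neither the absence of SLT2 nor the mating type of the strain could be checked. The spots of SLT2, deleted in both channels, read 1.48, -1.29, -1.51 and -1.14 on arrays 1 to 4. Of the other genes without a working copy, HIS3 read 2.11, -0.06, 0.52 and -0.24, and URA3 read 3.21 and -1.94 on arrays 2 and 3. LEU2 and MET17 had means of 0.14 and 0.10. Ratios more than 1 log2 unit from 0 were thus read at spots of deleted genes, for SLT2 on every array. STE3 and SAG1 are genes of the alpha mating type, not expected to be expressed in BY4741, which is of mating type a. STE3 read -1.19, -1.13, -1.95 and -2.58 on arrays 1 to 4 (-1.71 ± 0.69), and SAG1 read -0.92, -1.32, -3.01 and -1.05 (-1.58 ± 0.97). A common sign on every array with a mean beyond 1 in size was thus also read at genes expected to be silent.

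Among the peroxisomal genes CIT2 and PEX10, a ubiquitin ligase of the import machinery, were called higher with Congo red, at 2.04-fold and 1.80-fold. Those calls come from a test restricted to genes whose spots agreed, and no other member passed in either direction. Of all genes in that test, 5.31% passed higher and 11.5% lower. That test was chosen with its calls already known, and no gene passed it without array 3 or without array 4. In the wider test of all genes with a value on 4 arrays, no member passed after adjustment. Another 7 genes there had ratios above 0 on every array, among them IDP3, DCI1, PEX32, PEX30 and CTA1, and PEX6, PEX34 and FOX2 had ratios below 0 on every array. With CIT2 and PEX10 included, 31.0% of the members tested there were above 0 throughout, against 20.4% of all genes. Below 0 throughout were 10.3% of the members, against 21.3% of all genes. As a whole the members had a median close to that of all genes.

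Of the 41 members, 29 had a value on all 4 arrays and entered the wider test, against 4481 of the 5539 genes. The test was limma's moderated test of the mean ratio against 0, with Benjamini-Hochberg adjustment over all genes tested and a threshold of 0.05. It called 0 of the 29 members and 0% of all genes in either direction. At an unadjusted p under 0.05 limma found 9 of the 29 members higher (31.0%), where it found 13.1% of all genes, and 2 members lower (6.90%), where it found 14.4% of all genes. The same 9 genes, and no others, were higher on 4 of 4 arrays (31.0%, against 20.4% of all genes), and 3 were lower on 4 of 4 (10.3%, against 21.3%). The median of the 29 means was 0.06, beside 0.02 over all 4481 genes. On arrays 1 to 4 the members' median was 0.18, 0.11, 0.02 and 0.10. A ratio in bulk RNA cannot tell fewer transcripts per cell from fewer cells that make them.

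The second test, called the duplicate-spot analysis here, kept a gene only where both of its spots were measured and lay within 1 log2 unit on every array. It was chosen with its calls already known, a choice that its p-values ignore. It tested 2804 genes, among them 10 members: PEX2, PEX8, PEX10, PEX13, PEX25, ECI1, POT1, FAA2, CIT2 and MDH3. Of these 10, 2 passed higher (5.31% of all genes tested did) and 0 passed lower (11.5% of all genes tested did). At an unadjusted p under 0.05, limma found 2 of the 10 higher and 1 lower, against 12.6% and 22.3% of the genes tested. The median of the 10 means was -0.06, as over all 2804 genes (-0.06).

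**Figure D1:**
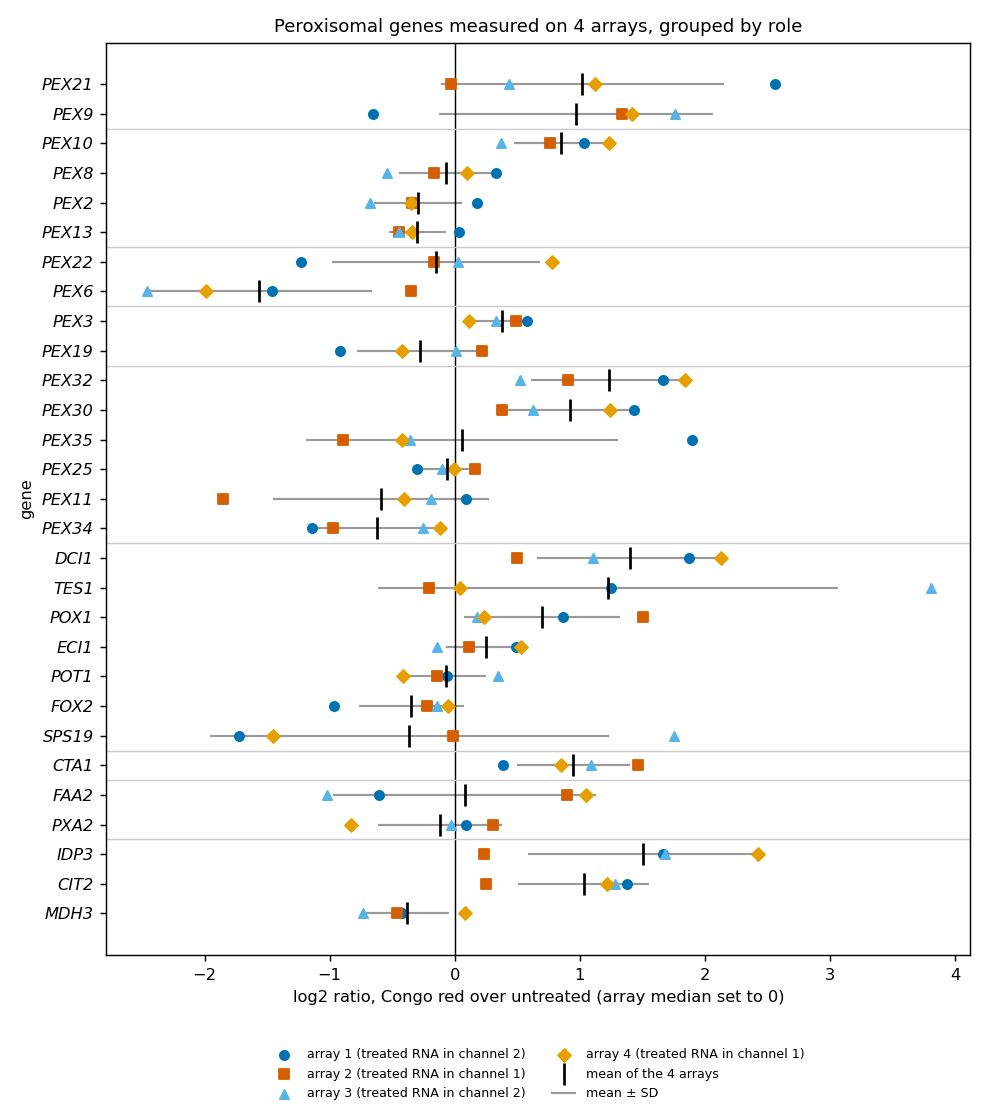
Log2 ratio of Congo red over untreated RNA (x axis) for the 29 peroxisomal genes measured on all 4 arrays (y axis), grouped by role. Points are the 4 arrays, the vertical mark is their mean and the horizontal line the mean ± SD. CIT2 has 3 arrays between 1.21 and 1.38 and array 2 at 0.25, while TES1 and SPS19 spread from below 0 to far above it.

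CIT2 and IDP3 belong to the enzymes that balance the peroxisome's supply of metabolites and reducing power. CIT2 joins acetyl-CoA, the end product of beta-oxidation, to oxaloacetate. Its ratios on arrays 1 to 4 were 1.38, 0.25, 1.28 and 1.21, so that array 2 lay far below the other 3, which were close together. The mean was 1.03 ± 0.53 (adjusted p = 0.0174 in the duplicate-spot analysis and 0.0857 in the wider test, limma). On array 2 its spots read -0.25 and 0.74, which is 0.99 log2 units apart and just within the limit of 1. Of its 8 spots 7 lay above 0. With an array left out the mean lay between 0.91 and 1.29. It no longer passed the duplicate-spot analysis without array 3 (adjusted p = 0.101) or without array 4 (adjusted p = 0.0883), when no gene did.

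IDP3 encodes the peroxisomal isocitrate dehydrogenase that supplies NADPH for the oxidation of unsaturated fatty acids. It read 1.67, 0.23, 1.68 and 2.43 on arrays 1 to 4, the highest mean of the 29 genes (1.50 ± 0.92) and again lowest on array 2. It did not pass (adjusted p = 0.0966, limma), and its spots were measured within 1 log2 unit of each other on 2 arrays only. MDH3, the malate dehydrogenase that removes NADH formed in beta-oxidation, lay on the other side of 0, at -0.42, -0.46, -0.73 and 0.08. Its mean of -0.38 ± 0.34 did not pass either test (adjusted p = 0.225 and 0.122). The 3 shuttle enzymes thus did not share a sign.

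In the beta-oxidation pathway itself the steps gave different readings and none of the 7 genes passed. POX1 encodes acyl-CoA oxidase, the first and peroxide-forming step. Its ratios were 0.86, 1.51, 0.18 and 0.23, above 0 on all arrays with a mean of 0.70 ± 0.62 (adjusted p = 0.18, limma), and on array 2 its spots were 2.14 log2 units apart. FOX2, the multifunctional enzyme of the following steps, read -0.96, -0.22, -0.14 and -0.06, all below 0, with a mean of -0.35 ± 0.42 that became -0.16 with runs of 400 spots centred. Its spots on array 2 were 2.63 log2 units apart, and 2 of its 8 spots lay above 0. POT1, the thiolase that closes each cycle, stayed near 0 at -0.06, -0.14, 0.35 and -0.42 (mean -0.07 ± 0.32).

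The auxiliary enzymes, which prepare unsaturated fatty acids for the cycle or release products from it, varied more between arrays. DCI1, a dienoyl-CoA isomerase, had 1.87, 0.50, 1.11 and 2.13, above 0 on every array (1.40 ± 0.74, adjusted p = 0.0826), but its spots were more than 1 log2 unit apart on arrays 1 and 4. ECI1, a related enoyl-CoA isomerase, lay at 0.25 ± 0.32, and both of its spots agreed on all 4 arrays. TES1, an acyl-CoA thioesterase, read 1.25, -0.21, 3.81 and 0.04. It had a single measured spot on arrays 2, 3 and 4, and its mean of 1.22 ± 1.84 was smaller than its SD. SPS19, the dienoyl-CoA reductase, read -1.73, -0.01, 1.75 and -1.46 and had no common sign (-0.36 ± 1.60).

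CTA1, the peroxisomal catalase that breaks down the hydrogen peroxide made by Pox1, read 0.39, 1.47, 1.09 and 0.85, above 0 on all arrays. Its mean of 0.95 ± 0.45 did not pass (adjusted p = 0.0826, limma). On array 2 its spots disagreed by 3.07 log2 units, and array 1 had only 1 measured spot.

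Entry of fatty acids into the peroxisome uses FAA2, an acyl-CoA synthetase for medium chains, and PXA1 with PXA2, the partners that form the transporter for activated long chains. FAA2 read -0.61, 0.89, -1.03 and 1.05 on arrays 1 to 4. Its spots agreed on all 4 arrays, and its sign followed the channel order: below 0 where treated RNA was in channel 2 and above 0 where it was in channel 1. The mean was 0.08 ± 1.05. The difference between the channel orders was -1.79 (arrays 1 and 3 minus arrays 2 and 4; unadjusted p = 0.00401, adjusted p = 0.872, limma; adjusted p = 0.0881 in the duplicate-spot analysis). Before turning, FAA2 therefore had the same sign on all 4 arrays once each array was centred. FAA2 was the 1 member of 29 with an unadjusted p under 0.05 for channel order, against 4.06% of all genes, and no gene of the 4481 (0%) passed after adjustment. In the duplicate-spot analysis 0 of the 10 members passed for channel order, where 0.0357% of the genes tested did. PXA2 lay near 0 (-0.12 ± 0.50). PXA1, with 3 arrays, read -2.68 and -2.50 on arrays 1 and 4 but 1.04 on array 2. Its spots were 3.39 log2 units apart on array 1 and 2.55 on array 4.

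**Figure D2:**
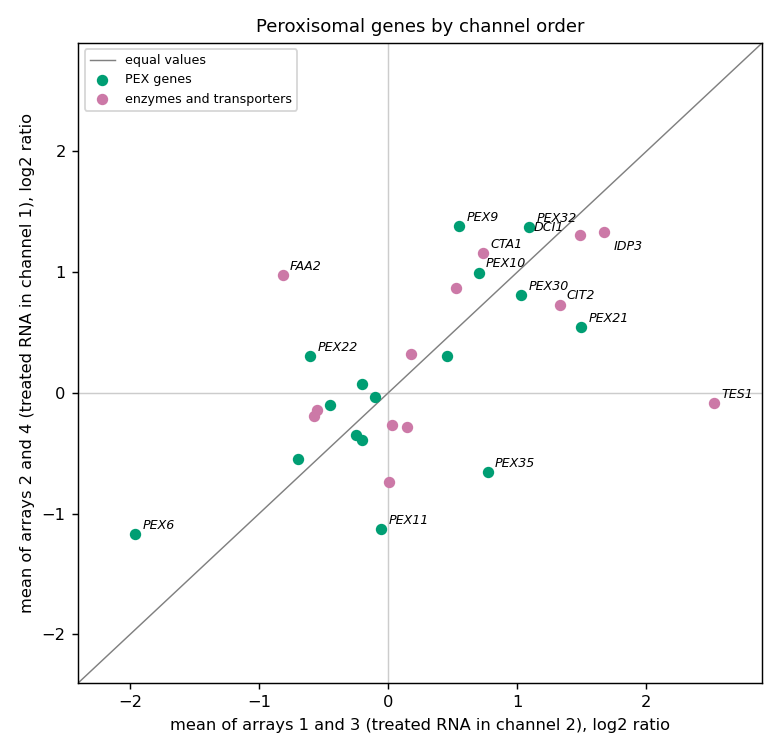
Mean log2 ratio over arrays 2 and 4 (y axis, treated RNA in channel 1) against arrays 1 and 3 (x axis, treated RNA in channel 2) for the 29 peroxisomal genes; the line marks equal values. CIT2, IDP3, DCI1, PEX32, PEX30, PEX10, CTA1, POX1, PEX9 and PEX21 lie well above 0 on both axes, although PEX9 and PEX21 had mixed signs on single arrays. FAA2 (-0.82 on x, 0.97 on y) and TES1 (2.53 on x, -0.08 on y) lie far from the line.

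The receptors that bring enzymes to the peroxisome were the least completely measured. PEX5, the receptor for the common signal at the C-terminus, read 2.02, 1.96 and 2.07 on arrays 1 to 3 and had no value on array 4. These gene averages were nearly equal (2.02 ± 0.05, n = 3), yet they hide spots that were 1.19, 2.55 and 2.47 log2 units apart, the same spot being the higher on each array. In a fit over the 5171 genes with at least 3 arrays its adjusted p was 0.075 (limma), and it met the agreement of spots on no array. PEX9, a relative of PEX5 that serves a few cargoes, read -0.65, 1.34, 1.76 and 1.42 (0.97 ± 1.10), with array 1 alone below 0. It had a single measured spot on arrays 1, 2 and 4.

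PEX7, the receptor for the signal near the N-terminus, read -0.25, 0.67 and 0.66 on arrays 1, 2 and 4 (0.36 ± 0.53, n = 3). PEX21, one of its partner proteins, had 2.56, -0.03, 0.43 and 1.12 (1.02 ± 1.13), and array 1 stood highest. The spots of PEX21 were 2.89 log2 units apart on array 1 and 2.22 on array 4. PEX18, the closely related partner, had a single measured spot, on array 2, at -4.83, which is too little to read. None of the receptors passed.

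At the membrane, receptors meet the docking proteins PEX13, PEX14 and PEX17 and the ubiquitin ligases PEX2 and PEX10, with PEX8 joining both groups. PEX10 read 1.03, 0.76, 0.37 and 1.23, above 0 on every array and on 7 of its 8 spots. Its mean was 0.85 ± 0.37 (adjusted p = 0.0173 in the duplicate-spot analysis and 0.0814 in the wider test, limma). Leaving out an array gave means from 0.72 to 1.01. PEX10 no longer passed the duplicate-spot analysis without array 3 (adjusted p = 0.0704), without array 4 (adjusted p = 0.0806) or with the values as deposited (0.93, adjusted p = 0.0866).

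Its partner ligase PEX2 did not share that reading, at 0.18, -0.34, -0.67 and -0.35 (-0.30 ± 0.35). PEX13 read 0.03, -0.44, -0.44 and -0.34 (-0.30 ± 0.23) and PEX8 lay at -0.07 ± 0.37. These 3 genes were measured with agreeing spots on all arrays and did not pass (adjusted p from 0.157 to 0.783, limma, duplicate-spot analysis). PEX14 and PEX17 each lacked array 3. PEX14 rested on 1 spot an array, at 4.74, -0.30 and 2.96 on arrays 1, 2 and 4. PEX17 was below 0 on the 3 arrays, at -1.44, -1.40 and -3.33 (adjusted p = 0.116 in the fit over genes with at least 3 arrays). Its value on array 4 rested on a single spot.

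Receptors leave the membrane through PEX4, a ubiquitin-conjugating enzyme anchored by PEX22, and through the ATPase PEX6, which is anchored by PEX15. PEX6 had the lowest mean of the 29 genes, with -1.46, -0.35, -2.46 and -1.99 on arrays 1 to 4, all below 0 (-1.57 ± 0.91, adjusted p = 0.0902, limma). Its spots agreed within 1 log2 unit on array 4 only. PEX15 lay below 0 on arrays 1 and 4 (-0.95 and -1.86, each from a single spot) and near 0 on array 2 (0.09). PEX22 ran from -1.23 on array 1 to 0.78 on array 4, and PEX4 from 0.00 to 0.88 over arrays 2 to 4, so neither had a fixed size. The spots of PEX22 agreed within 1 log2 unit on no array.

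Proteins of the peroxisomal membrane are inserted by PEX19, a cytosolic chaperone, and PEX3, its docking site and a protein without which no peroxisomes form. PEX3 gave small ratios above 0 on all arrays, 0.58, 0.49, 0.33 and 0.11 (0.38 ± 0.20, adjusted p = 0.165, limma). PEX19 read -0.91, 0.22, 0.01 and -0.42 and had no common sign (-0.28 ± 0.50). On array 1 its spots were 2.80 log2 units apart.

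The proteins that set the number and size of peroxisomes were split. PEX30 and PEX32, related proteins of the endoplasmic reticulum, were above 0 on every array. PEX32 read 1.66, 0.90, 0.52 and 1.84 (1.23 ± 0.62, adjusted p = 0.0818, limma). PEX30 read 1.43, 0.38, 0.63 and 1.24 (0.92 ± 0.50, adjusted p = 0.0952). Arrays 1 and 4 were highest for both genes. The spots of PEX30 disagreed by more than 1 log2 unit on arrays 1 and 4, and those of PEX32 on arrays 3 and 4, with 1 spot of PEX32 on array 3 at -0.08. PEX31, the remaining close relative, was measured on arrays 2 and 3 only, at 0.69 and 0.26. Its value on array 2 averages spots 1.50 log2 units apart, and array 3 had a single measured spot.

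PEX28 (0.65, 0.70 and 0.07 on arrays 2 to 4) and PEX29 (-0.24, 0.36 and 0.33 on arrays 1, 2 and 4) belong to the same group. The value of PEX28 on array 4 averages spots 3.03 log2 units apart. The membrane-elongating protein PEX11 read 0.09, -1.85, -0.19 and -0.40 (-0.59 ± 0.86), with array 2 far below the rest. Its mean was -0.17 without array 2 and -0.05 with runs of 400 spots centred. Its relative PEX25 stayed near 0 on every array (-0.06 ± 0.19), and PEX27, the remaining relative, was measured on array 4 alone, at 1.76. PEX34, which acts with the PEX11 family, was below 0 on all arrays, at -1.14, -0.98, -0.26 and -0.12 (-0.63 ± 0.51, adjusted p = 0.166), although 1 of its 8 spots lay above 0. Its mean became -0.37 with runs of 400 spots centred. PEX35, a regulator of peroxisome abundance, read 1.90, -0.89, -0.36 and -0.42, and on array 1 its spots were 4.90 log2 units apart.

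**Figure D3:**
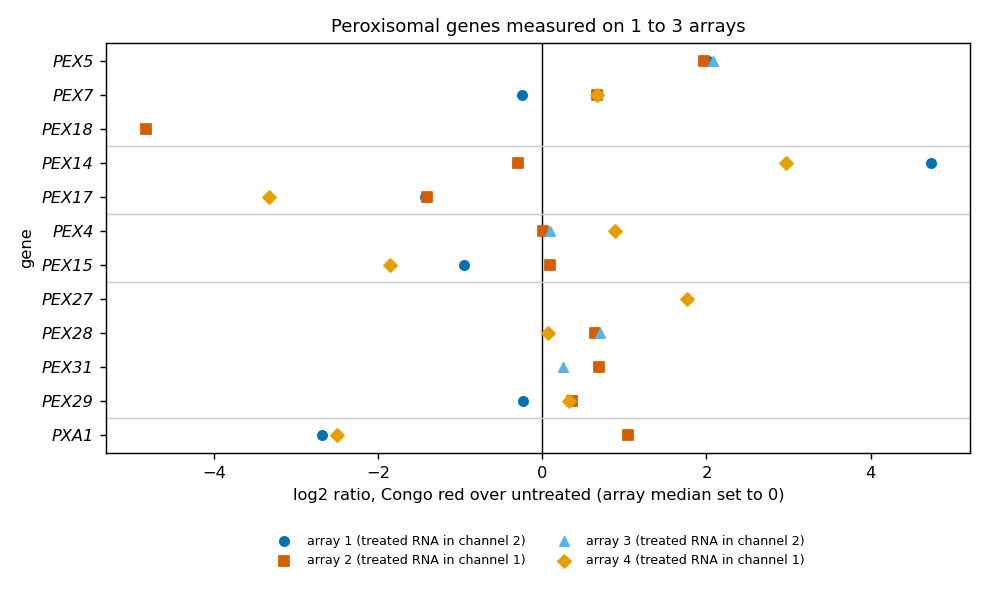
Log2 ratio of Congo red over untreated RNA (x axis) for the 12 peroxisomal genes with values on 1 to 3 arrays (y axis); each point is 1 array. PEX5 lies near 2 on 3 arrays, PEX17 lies below 0 on 3 arrays, and PEX14 and PXA1 spread over both sides of 0.

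As a set, the peroxisomal genes were measured less well than the rest of the array. Of their 82 spots, 80.5%, 90.2%, 76.8% and 82.9% had a usable ratio on arrays 1 to 4, against 84.6%, 91.9%, 88.8% and 88.1% of all spots with a gene. Of their measured pairs of spots, 63.3%, 82.4%, 83.3% and 63.3% were no more than 1 log2 unit apart, against 80.8%, 91.7%, 91.4% and 86.6% over all genes. The median SD between arrays was 0.51 for the 29 members and 0.38 for all 4481 genes. Of the 29 members 34.5% met the agreement of spots on all arrays, against 62.6% of all genes. Spot brightness is not analysed here, and its part in these differences was not tested.

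**Figure D4:**
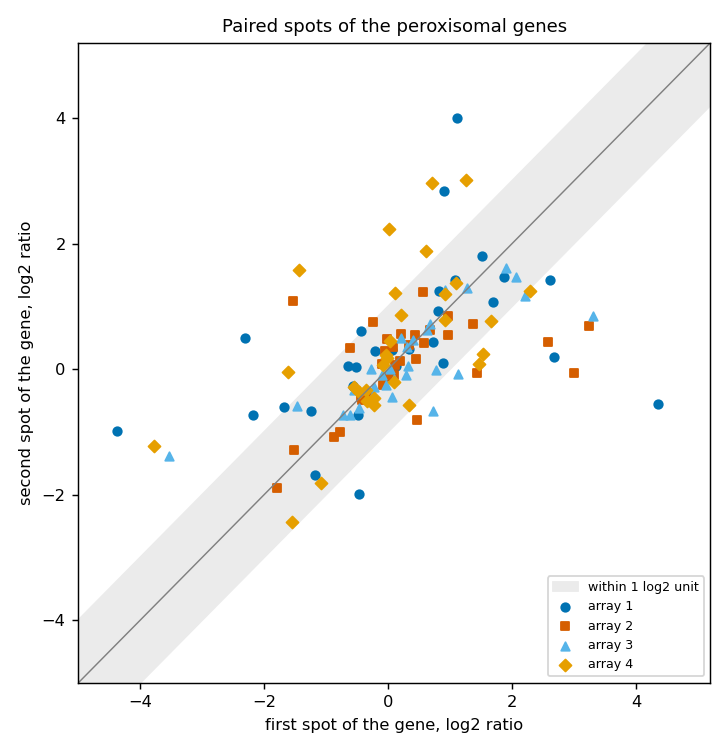
Second spot against first spot of each peroxisomal gene, in log2 ratio of Congo red over untreated RNA, with 1 point for each gene and array on which both were measured. The grey band holds pairs within 1 log2 unit, 19 of 30 on array 1, 28 of 34 on array 2, 25 of 30 on array 3 and 19 of 30 on array 4.

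Further genes of the pathway came from a textbook list of regulators, other peroxisomal enzymes, related cytosolic and mitochondrial enzymes, and division and turnover factors. All 55 had spots and 41 had values on 4 arrays. None passed in the wider test, and at an unadjusted p under 0.05 limma found 4 higher (9.76%) and 4 lower (9.76%), below the shares of 13.1% and 14.4% over all genes. Their median was 0.04. In the duplicate-spot analysis 1 of 22 passed higher and 2 lower, beside 5.31% and 11.5% of all genes tested.

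SNF1, the kinase that relieves glucose repression, rose by 0.53 ± 0.14, with 0.59, 0.70, 0.38 and 0.45 on arrays 1 to 4 (adjusted p = 0.0294, limma, duplicate-spot analysis). FIS1, which recruits the division machinery of peroxisomes and mitochondria, fell to -0.43 ± 0.10 (adjusted p = 0.0459), and PXP1, a peroxisomal matrix protein, to -0.42 ± 0.08 (adjusted p = 0.047). These 3 calls were lost whichever array was left out, with adjusted p between 0.0727 and 0.165, and with the values as deposited. With genes on at least 3 arrays neither FIS1 nor PXP1 passed (adjusted p = 0.061 and 0.0623). When a trend of the ratio with gene length was removed, the call of FIS1 ended (-0.12, adjusted p = 0.49), and that of PXP1 ended with its p just above the threshold (-0.46). PXP1 also lost its call with runs of 400 spots centred (adjusted p = 0.0648) and with channel order in the fit (adjusted p = 0.0516).

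Among the regulators 9 were measured on all arrays, and 5 were higher on 4 of 4 (20.4% of all genes were). All regulators named here except SNF1 were chosen after their values were seen. The 5 were SNF1, ADR1 (0.35 ± 0.15) and OAF1 (0.70 ± 0.49), whose products help to switch on fatty acid genes, and RTG2 (1.02 ± 1.21) and RTG3 (1.49 ± 1.31), which encode activators of CIT2. For the RTG genes array 1 was far above the others, at 2.76 and 3.44. MIG1, the glucose repressor, was lower on 4 of 4 (-0.54 ± 0.37). Apart from SNF1 none of these passed, while PIP2, the partner of OAF1, and RTG1, the partner of RTG3, had mixed signs (0.31 ± 0.72 and -0.87 ± 2.17). The remaining regulators of the list were MKS1 and OAF3. MKS1 read -2.64, 0.48, 0.75 and -1.15 on arrays 1 to 4, and OAF3 read 1.39, 0.26 and 0.02 on arrays 2 to 4. Any link between the regulators and the members was not tested. The mitochondrial citrate synthase CIT1, the closest relative of CIT2 and likewise named after its values were seen, was measured on 2 arrays, at -1.23 and -3.00. Its spots agreed within 1 log2 unit on 1 array only. CIT3, of the same part of the list and also named after its values were seen, read -0.84, -0.26, -0.30 and 0.13 (-0.32 ± 0.40) and did not pass. The labels and annotation do not say whether the probes separate CIT1 from CIT2.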

How the data were processed

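All 4 arrays were used, as 1 group. Per spot (12800 of them) and array, the authors deposited a log2 ratio between the channels. Scanning, filtering, normalization, dyes and numerator: none of these is given in the sources used here. The top value of 16.61, the log2 of 100000, was taken as a placeholder and set to missing (31 to 68 spots an array, 1 of them a member spot). Array medians as deposited were 0.43, -0.25, 0.30 and 0.64. Each was subtracted, and arrays 2 and 4 were multiplied by -1. GEO's platform annotation named 1 gene for 11138 spots and left 1662 unnamed here. Symbols of 5534 of 5539 genes were updated through RefSeq's gene table (R64), whose build is not known to be the array's, so no coordinates are printed. Spots of a gene were averaged. The mean ratio of each gene was compared with 0 by lmFit and eBayes (limma 3.58.1, R 4.3.3), Benjamini-Hochberg adjusted at 0.05, with channel order as a second coefficient for its own test. The fit was tested on simulated data.

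The members, lists and analyses were chosen with earlier results of these data known. Every measured member is named. Of the other genes of the pathway, those past 0.05 in either analysis are named, and any other is said to be chosen after its values were seen. Alternatives were values as deposited, the placeholder kept, genes on at least 3 arrays, runs of 400 spots centred, a loess trend with gene length removed, channel order in the fit, spots within 0.5 log2 units, and each array left out. Sequences of promoters and proteins were not analysed here. The number of arrays limits the precision.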

Additional observations from a re-analysis of the deposited data

Results flagged for a closer look

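CIT2 was singled out because 1 of its 4 arrays stood apart: array 2 at 0.25 lay below arrays 1, 3 and 4 (1.38, 1.28 and 1.21), and that gap took a share of 0.854 of the whole range, above Dixon's critical value for 4 values. The spots of CIT2 on array 2 were also the farthest apart of its 4 pairs. Without array 2 its mean was 1.29 and its adjusted p in the duplicate-spot analysis 0.00974 (limma). Of the 29 members examined this way CIT2 was the 1 that exceeded the value, and chance alone gives about 1 in 20.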

How the results depend on the processing

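No paired analysis was possible because the 4 arrays form 1 group and each array already pairs treated with untreated RNA. In the wider test 0 members were called higher or lower under every alternative tried, while over all genes its 0 calls became 93 with values as deposited, 214 with runs of 400 spots centred and 33 without the length trend. The duplicate-spot analysis called 472 genes, but 59 with values as deposited, 217 without the length trend, 215 without array 2 and 0 without array 3 or array 4. Its 2 members called higher were 1 (CIT2) with values as deposited, from 0 to 2 with an array left out, and 0 among the 3 members with spots within 0.5 log2 units, where neither CIT2 nor PEX10 was tested. The members' median in the wider test (0.06) was 0.14 with values as deposited and lay between -0.039 and 0.21 with an array left out, the sets of members then differing (29 to 35 genes); without array 2 it was below 0. In the duplicate-spot analysis the median was -0.30 over the 3 members with spots within 0.5 log2 units and between -0.089 and 0.018 with an array left out. Signs turned for members with means under 0.4 in size only. With values as deposited PEX8 stood at 0.014, PEX25 at 0.023 and POT1 at 0.016. With runs of 400 spots centred PEX8 stood at 0.11, and without the length trend PEX22 stood at 0.031 and FAA2 at -0.065. With an array left out, means lay between -0.20 and 0.086 for PEX8, -0.46 and 0.21 for PEX22, -0.13 and 0.018 for PEX25, -0.56 and 0.37 for PEX35, -0.21 and 0.047 for POT1, -1.07 and 0.093 for SPS19, -0.25 and 0.45 for FAA2, and -0.26 and 0.12 for PXA2. For the 5 genes called in the duplicate-spot analysis (CIT2, PEX10, SNF1, FIS1 and PXP1), 26 of 52 recomputed values lost the call. Of the 373 recomputed values of uncalled results, 25 turned sign and 0 became calls. Means of the 29 members in the wider test moved by over 1.5 times for 13 with runs of 400 spots centred, for 7 with values as deposited, for 7 without the length trend and for 6 to 11 with an array left out. The cause of these changes was not tested, except that a stricter rule on spots leaves fewer genes.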
